A study of Mus musculus with 12 samples.

Results

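The genes described here build the machinery that copies the genome and divides the cell. They are the cyclins, the cyclin-dependent kinases (CDKs) and their CDC25 activators, the MCM helicase and its loader, and the kinases and checkpoint proteins of mitosis. The 40 members were listed by name and sorted by role. The detection p of a probe is the chance that background alone would give a signal as high. A member counted as measured where a probe carrying its name had a detection p no higher than 0.01. This was required on each of the 3 arrays of at least 1 group. This held for 31 of the 40 members, among 8487 named genes and 2602 unnamed probes, 11089 features in all, that met the same rule in the whole series.

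The series compares 4 populations of mouse pluripotent cells, with 3 Illumina MouseWG-6 v2 arrays for each and 12 in all. EpiSC are epiblast stem cells of the line TNG Esrrb-2a-TdTomato, cultured with Activin and FGF in N2B27. This line carries a GFP reporter in 1 Nanog allele and a red reporter at Esrrb. EsrrbNeg, EsrrbMed and EsrrbHi are embryonic stem cells (ESCs) of a single line, E14Tg2a Esrrb-2a-GFPd-IBIH, which carries a destabilised GFP at Esrrb, grown for 3 days in serum and LIF after plating at 3000 cells/cm2. They were sorted as SSEA-1 positive cells without, with medium and with high GFP, so that all ESC groups share genotype and medium. No sort is described by the study for the EpiSC. Cell line, medium, sorting, number of Nanog alleles and state cannot be told apart in any comparison with EpiSC. The groups differ in chip as well, since all EpiSC arrays lay on chip 2 with array 3 of each ESC group, and arrays 1 and 2 of the ESC groups lay on chip 1.

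Progress through the cycle is driven by CDKs, whose cyclin partners are made and destroyed in turn. D and E cyclins act in G1 and at the start of S phase, when the MCM helicase loaded in G1 is fired. CDK1, freed of inhibitory phosphates by CDC25, then drives mitosis together with the Polo and Aurora kinases. Mouse ESCs are known for a short G1 phase and a large share of cells in S phase. Transcripts of the mitotic genes are known to accumulate in G2 and M and those of many replication genes around the G1 to S boundary. In RNA from a population of cells, fewer cells in a phase and less RNA per cell cannot be told apart.

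The labels and the Esrrb probe went together. Esrrb log2 intensities were 6 to 6.55 in EpiSC, 5.5 to 5.8 in EsrrbNeg, 11.18 to 11.32 in EsrrbMed and 11.73 to 12.10 in EsrrbHi. Between 13333 and 15393 probes were detected per array, 29 to 31 of the measured members among them, and arrays of a group correlated at 0.987 to 0.996 over all features. Markers of other cell types moved with the groups. Summed over 7 extraembryonic endoderm markers, linear intensity was 199 to 227 in EsrrbNeg, against 149 to 156 in EsrrbHi, with 1 of 7 detected on every array of either group and Gata4, Sox17 and Afp on none. Summed over 5 neural markers it was 158 to 207 in EsrrbNeg, where only Nes was detected on all 3 arrays, against 93.7 to 102 in EsrrbHi, where none was, and Sox1, Pax6, Neurod1 and Tubb3 were detected on no array. Summed over 8 fibroblast markers it was 240 to 354 in EpiSC, 199 to 223 in EsrrbNeg and 164 to 168 in EsrrbHi, with 3, 1 and 1 of 8 detected and Col1a2 and Pdgfrb on no array. Summed over 6 trophectoderm markers, intensity was 926 to 1140 in EpiSC, 398 to 554 in EsrrbNeg and 1100 to 1430 in EsrrbHi, with 4, 2 and 1 of 6 detected and Elf5 and Hand1 on no array. Cdx2 was 6.02-fold and Eomes 3.77-fold higher in EpiSC than in EsrrbNeg. Summed over 5 primitive streak markers, it was 227 to 327 in EpiSC, 101 to 153 in EsrrbNeg and 122 to 131 in EsrrbHi, with 2, 0 and 1 of 5 detected and Mixl1 and Mesp1 on no array. Their part in the values below was not tested.

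In EsrrbNeg, against EsrrbHi, 6 measured members fell and only Ccne2, an E cyclin gene, rose. Those that fell were the G1 cyclin gene Ccnd3, the cyclin F gene Ccnf and the mitotic genes Aurkb, Aurka, Top2a and Cdk1. A gene was called where limma gave an adjusted p of at most 0.05 and a fold change of at least 1.5 in either direction, and "rose" and "fell" are used of called genes only. The 7 calls are 22.6% of the measured members, beside 18.1% of all features tested. Counting adjusted p alone, 20 members passed, 7 higher and 13 lower in EsrrbNeg, which is 64.5% of the members beside 41% of all features. They include Cdc25b, which passed the detection filter only through EsrrbHi, where it is high, so that its lower value is no support. The median size of the log2 fold change, sign aside, was 0.41 over the members and 0.23 over all features. The study describes its array measurements as independent experiments, while the labels do not say which steps, from culture to hybridisation, were repeated for each array. The p-values measure the scatter of these samples, of which a part may be technical.

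In EsrrbMed, against EsrrbHi, only Ccne2 rose and no member fell, so that 3.23% of the members were called, beside 1.18% of all features. By adjusted p alone Aurkb passed too, lower in EsrrbMed, and so did Cdc25b, to which the same limit applies, making 3 members (9.68%) beside 2.63% of all features. The median size of the log2 fold change was 0.22 over the members and 0.11 over all features. In EsrrbNeg, against EsrrbMed, only Ccnd3 fell (3.23% of members, beside 11.9% of all features), and 8 members passed adjusted p alone, 7 of them lower (25.8% beside 29.2%). There the median size was 0.16 over the members and 0.18 over all features.

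EpiSC differed from EsrrbNeg cells in 8 members. Fold changes of EpiSC allow for the chip, through the ESC arrays, and so can differ from the difference of the intensities given below, which do not. Ccnd2, Cdc25c, Aurka and Plk1 rose, and Ccne1, Cdc25a, Ccne2 and Mcm3 fell, which is 25.8% of the members beside 21% of all features. By adjusted p alone 17 members passed (54.8% beside 44.2%). They include Cdc25b (0.32), which was detected on 0 arrays of EpiSC and 1 of EsrrbNeg, so that its value is no support. Against EsrrbMed, EpiSC had 5 calls (16.1% beside 30.5%), with Ccnd2 up and Ccne1, Ccnf, Cdc25a and Top2a down. Against EsrrbHi there were 4 (12.9% beside 33.4%), with Ccnd2 up and Ccnf, Top2a and Ccne1 down. By adjusted p alone, 14 members passed against EsrrbMed (45.2% beside 55.4%) and 13 against EsrrbHi (41.9% beside 57.3%). The 14 include Cdc25b (0.29), detected on 1 array of EsrrbMed, with the same limit. The EsrrbNeg arrays enter both EsrrbNeg against EsrrbHi and EpiSC against EsrrbNeg, so the values of these comparisons are not independent of each other.

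**Figure D1:**
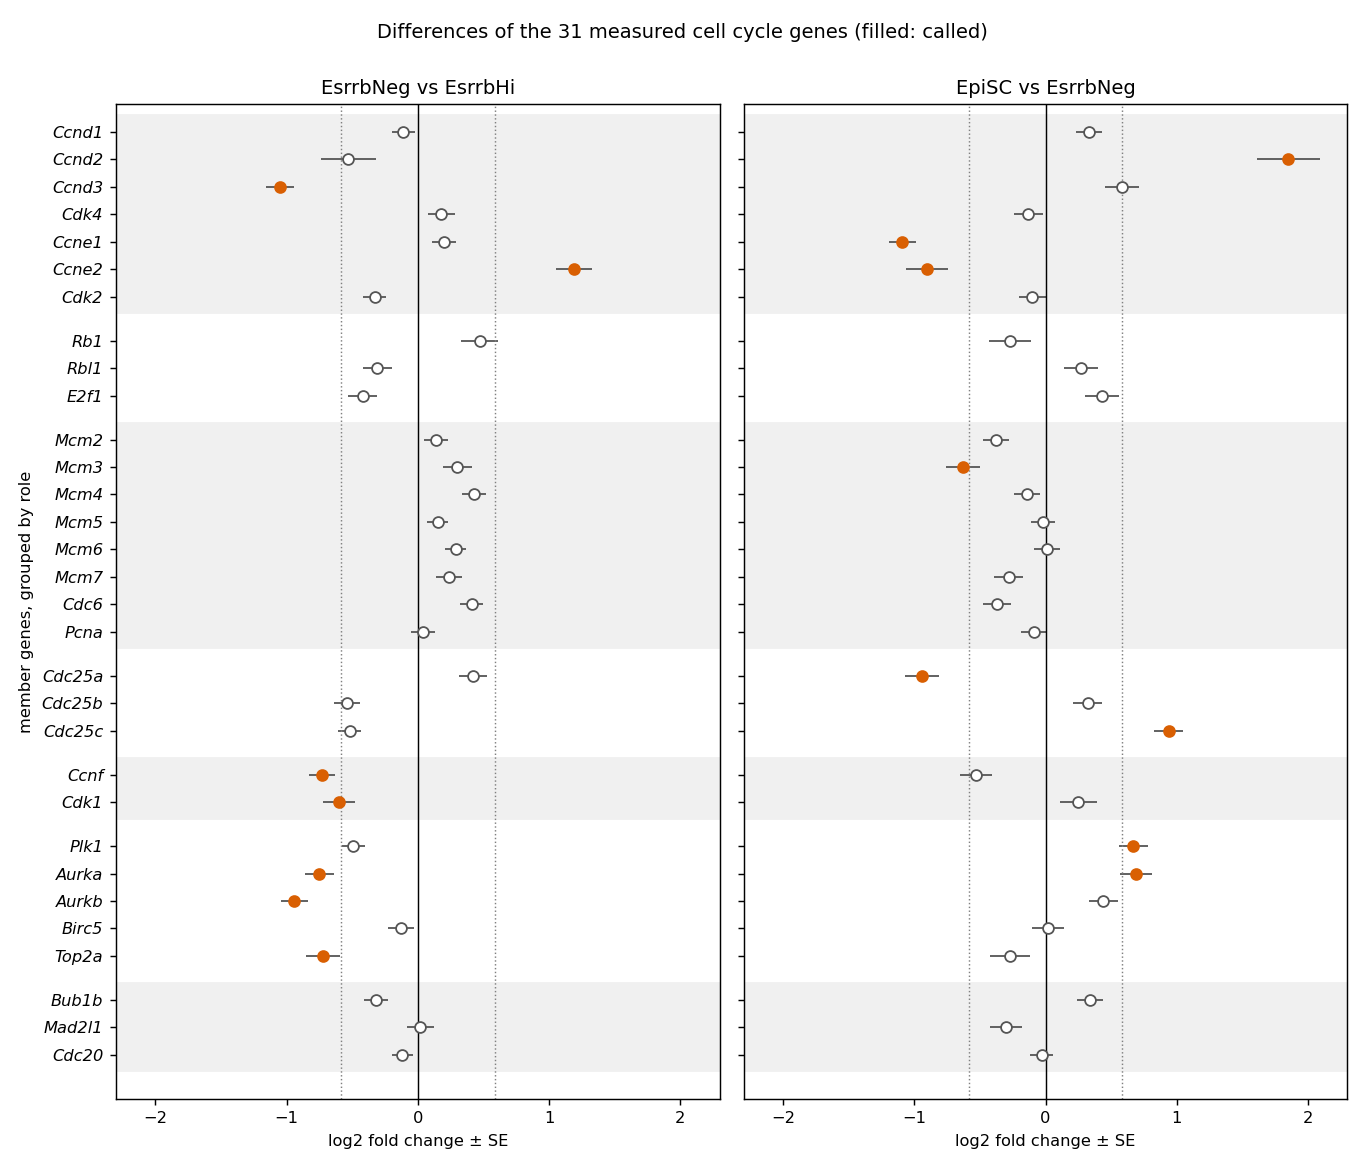
Log2 fold changes (points) with standard errors (bars) of the 31 measured cell cycle genes, in EsrrbNeg against EsrrbHi on the left and EpiSC against EsrrbNeg on the right, with shaded bands separating the roles. Filled points are called and dotted lines mark a fold change of 1.5. In the left panel all 5 genes of the mitotic kinase group lie left of 0 and all 8 licensing and replication genes right of it.

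Promoter sequences are shown for 4 mitotic genes that fell in EsrrbNeg and for 2 genes of S phase, because such genes are known to carry distinct elements. The 110 bases before the annotated start are given, 5′ to 3′ in the direction of transcription, from RefSeq's GRCm38.p6 annotation. Capitals mark 3 motifs on either strand, the CCAAT box (CCAAT), the cell cycle homology region or CHR (TTTGAA or TTCGAA) and an E2F-like site (TTTNNCGC, both N being C or G).
Top2a (chr11:99024190-99024299, minus strand): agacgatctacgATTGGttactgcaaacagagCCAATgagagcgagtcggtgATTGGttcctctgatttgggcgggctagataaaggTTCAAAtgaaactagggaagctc
Cdk1 (chr10:69352913-69353022, minus strand): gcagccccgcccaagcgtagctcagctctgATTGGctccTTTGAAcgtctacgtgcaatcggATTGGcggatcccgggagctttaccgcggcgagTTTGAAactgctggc
Ccnf (chr17:24251410-24251519, minus strand): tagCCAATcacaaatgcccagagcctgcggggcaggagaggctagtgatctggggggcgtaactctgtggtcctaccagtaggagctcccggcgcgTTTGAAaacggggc
Aurka (chr2:172370571-172370680, minus strand): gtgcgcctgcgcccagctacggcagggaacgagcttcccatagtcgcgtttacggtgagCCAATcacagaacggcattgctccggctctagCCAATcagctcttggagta
Mcm6 (chr1:128359706-128359815, minus strand): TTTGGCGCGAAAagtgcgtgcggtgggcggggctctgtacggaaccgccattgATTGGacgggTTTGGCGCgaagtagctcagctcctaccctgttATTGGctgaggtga
Cdc25a (chr9:109875469-109875578, plus strand): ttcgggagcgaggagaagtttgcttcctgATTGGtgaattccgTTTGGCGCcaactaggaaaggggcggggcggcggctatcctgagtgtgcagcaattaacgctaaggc

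In the 250 bases before the start, a CHR together with a CCAAT box was present for Top2a, Cdk1 and Ccnf, and CCAAT boxes alone for Aurka. Mcm6 held 3 E2F-like matches, 2 of them overlapping, and Cdc25a and Cdk1 held 1 each, that of Cdk1 lying before the bases printed. Windows were found for 24 of the 31 measured members, and not for Ccnd1, Ccnd2, Ccne2, Rb1, Mcm4, Cdc25c and Aurkb. An E2F-like match stood in 8 of the 24 (33.3%, beside 1.86% of all 32851 windows of this length), 4 of them among the 7 licensing and replication genes with a window and 0 among the 4 of the mitotic kinase group. A CHR stood in 7 of the 24 (29.2% beside 17.1%), 2 of them among the 7 licensing and replication genes and 1 among the 4 of the mitotic kinase group. A CCAAT box stood in 16 (66.7% beside 33.8%), 6 and 3 of them in those groups. The matches describe letters in these windows and were not tested against the expression values.

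Of the mitotic kinase, chromosome and proliferation group, 5 of 6 members were measured and Mki67 was not analysed here. All 5 were lower in EsrrbNeg than in EsrrbHi, with a median log2 fold change of −0.72, beside 0.03 over all features. Of the 5, 3 were called, beside 18.1% of all features. In EpiSC against EsrrbNeg the median was 0.44, 2 were called higher, beside 21% of all features called in either direction, and 4 of 5 were positive. The fourth was Birc5 at 0.02, which is negative in the authors' normalized table and in both other Birc5 probes. Aurkb, the kinase of the chromosomal passenger complex that corrects chromosome attachment, had log2 intensities of 8.39, 8.49 and 8.18 in EpiSC, 7.71, 7.71 and 7.90 in EsrrbNeg, 8.04, 8.14 and 8.46 in EsrrbMed and 8.72, 8.67 and 8.75 in EsrrbHi. The 3 ESC groups did not overlap, in the order of the reporter. Its log2 fold change was −0.94 ± 0.10 (SE) in EsrrbNeg against EsrrbHi (adjusted p = 6.53e-06). It came to −0.44 for EsrrbNeg against EsrrbMed (adjusted p = 0.0044) and −0.50 for EsrrbMed against EsrrbHi (adjusted p = 0.0207), neither past the fold threshold. In EpiSC against EsrrbHi it was −0.50 (adjusted p = 0.00217), also under that threshold.

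Aurka, which matures centrosomes and builds the spindle, had log2 intensities of 10.33, 10.12 and 10.08 in EpiSC, 9.43, 9.39 and 9.65 in EsrrbNeg, 9.74, 9.92 and 9.78 in EsrrbMed and 10.30, 10.31 and 10.12 in EsrrbHi. EsrrbNeg lay below every other group and EpiSC overlapped EsrrbHi. The gene fell by 0.75 ± 0.11 on the log2 scale in EsrrbNeg against EsrrbHi (adjusted p = 8.14e-05) and was 1.61-fold higher in EpiSC than in EsrrbNeg (adjusted p = 0.000692). The second call is lost on chip 2 alone, where the log2 fold change was 0.52. Between EpiSC and EsrrbHi the difference was −0.07, with a 95% interval of −0.33 to 0.20.

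Plk1, the Polo kinase of mitotic entry and spindle assembly, showed log2 intensities of 11.29, 11.11 and 11.05 in EpiSC, 10.47, 10.41 and 10.55 in EsrrbNeg, 10.62, 10.62 and 10.66 in EsrrbMed and 10.96, 11.07 and 10.86 in EsrrbHi. EsrrbNeg was again the lowest group, without overlap with the others. Its log2 fold change of −0.49 ± 0.09 in EsrrbNeg against EsrrbHi passed the adjusted p (0.000831) but not the fold threshold, and it rose by 0.67 ± 0.11 in EpiSC against EsrrbNeg (adjusted p = 0.000285). The interval of the difference between EpiSC and EsrrbHi was −0.04 to 0.42.

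Top2a, the topoisomerase that untangles sister chromatids, followed the ESC order but not the EpiSC values of the kinases. It had log2 intensities of 8.72, 8.66 and 8.33 in EpiSC, 8.86, 8.86 and 8.72 in EsrrbNeg, 8.98, 9.11 and 9.41 in EsrrbMed and 9.40, 9.72 and 9.48 in EsrrbHi. EpiSC and EsrrbNeg did not overlap with EsrrbHi. The gene fell by 0.72 ± 0.13 in EsrrbNeg (adjusted p = 0.000716) and by 1 ± 0.15 in EpiSC (adjusted p = 0.000107), each against EsrrbHi. A second Top2a probe gave −0.54 in EsrrbNeg, under the fold threshold, and −1.10 in EpiSC. The fall in EpiSC against EsrrbMed (−0.63) is lost without EsrrbMed array 3 or EpiSC array 3, without background correction and in the authors' normalized table. Birc5 (survivin), a partner of Aurkb in the passenger complex, had differences of −0.13 (95% interval −0.34 to 0.09) in EsrrbNeg against EsrrbHi and 0.02 (−0.23 to 0.27) in EpiSC against EsrrbNeg, and the second came to −0.08 in the authors' normalized table. The other Birc5 probes gave −0.38 (adjusted p = 0.044) and −0.22 in EpiSC against EsrrbNeg.

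**Figure D2:**
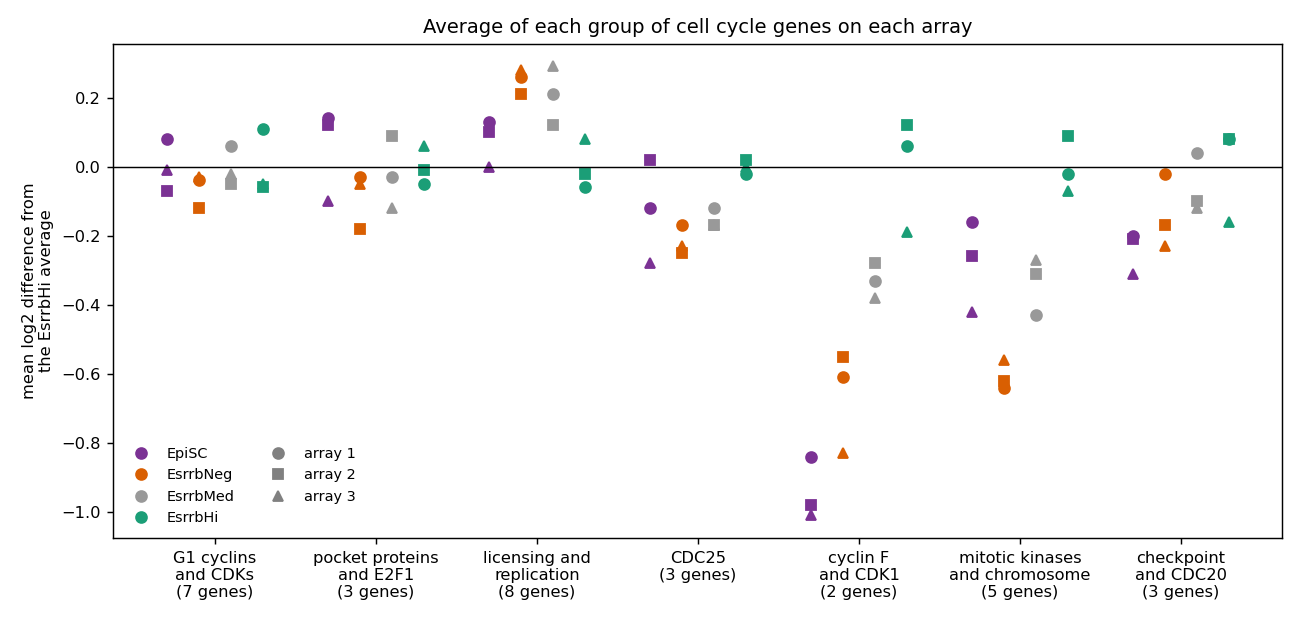
Mean over the genes of each role of the log2 difference from that gene's EsrrbHi average (vertical axis), for each of the 12 arrays, with groups as colours and arrays as symbols. The averages of the mitotic kinase group were −0.42 to −0.16 in EpiSC, −0.64 to −0.56 in EsrrbNeg, −0.43 to −0.27 in EsrrbMed and −0.07 to 0.09 in EsrrbHi, with no allowance for chip.

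The cyclin and CDK of G2 and mitosis could be followed through 2 of 5 members. Ccna2 and Ccnb2 were above background on no array, and Ccnb1 was not analysed here. Above background means, here and below, a detection p no higher than 0.01. Ccna2 and Ccnb2 had 1 named probe each, with lowest detection p of 0.016 and 0.138. A probe that misses this cut does not show that its gene is not expressed. Cdk1, the kinase that drives mitosis and whose promoter above holds 2 CHR matches, had log2 intensities of 9.78, 9.78 and 9.35 in EpiSC, 9.68, 9.71 and 9.37 in EsrrbNeg, 9.73, 9.85 and 9.67 in EsrrbMed and 10.35, 10.32 and 9.90 in EsrrbHi. In every group array 3 gave the lowest value, and EsrrbHi lay above the other 3 groups. The fall of 0.60 ± 0.12 in EsrrbNeg against EsrrbHi (adjusted p = 0.00104) sits at the fold threshold. It is lost without EsrrbHi array 1, without background correction, with normexp at an offset of 50 and in the authors' normalized table (adjusted p between 0.000164 and 0.0069 over all alternatives). Within chip 1 and chip 2 its log2 fold changes were −0.64 and −0.53.

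Ccnf, which encodes cyclin F, a substrate receptor of an SCF ubiquitin ligase rather than a CDK partner, was lowest in EpiSC. Its log2 intensities were 6.38, 6.09 and 6.47 in EpiSC, 6.93, 7.02 and 6.80 in EsrrbNeg, 7.44, 7.42 and 7.41 in EsrrbMed and 7.62, 7.77 and 7.56 in EsrrbHi. None of the 4 groups overlapped. Ccnf fell by 0.73 ± 0.10 in EsrrbNeg against EsrrbHi (adjusted p = 7.62e-05) and was 2.4-fold lower in EpiSC than in EsrrbHi (adjusted p = 1.2e-06), while the difference of −0.53 between EpiSC and EsrrbNeg (adjusted p = 0.00282) stayed under the fold threshold. The call in EsrrbNeg is lost without background correction (−0.49) and in the authors' normalized table (−0.50).

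The CDC25 phosphatases, which strip inhibitory phosphates from CDKs, did not move together. Cdc25a, which acts at the start of S phase as well as in mitosis, had log2 intensities of 7.83, 8.06 and 7.59 in EpiSC, 8.70, 8.79 and 8.71 in EsrrbNeg, 8.42, 8.54 and 8.55 in EsrrbMed and 8.23, 8.33 and 8.39 in EsrrbHi. EsrrbNeg was above every other group and EpiSC below. Cdc25a was 1.92-fold lower in EpiSC than in EsrrbNeg (adjusted p = 0.000103), and the difference of 0.42 ± 0.11 in EsrrbNeg against EsrrbHi passed the adjusted p alone (0.0087).

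Cdc25c, which activates CDK1 at mitotic entry, ran the other way. It had log2 intensities of 7.13, 7.20 and 6.87 in EpiSC, 6, 5.95 and 6.11 in EsrrbNeg, 6.36, 6.32 and 6.57 in EsrrbMed and 6.46, 6.53 and 6.64 in EsrrbHi. EpiSC lay above and EsrrbNeg below all other arrays. The rise in EpiSC was 0.94 ± 0.11 against EsrrbNeg (adjusted p = 3.56e-05), and a second Cdc25c probe gave 0.84. The call is lost without background correction (0.52). In EsrrbNeg against EsrrbHi the log2 fold change was −0.52 ± 0.09 (adjusted p = 0.000588), but −0.18 (adjusted p = 0.211) by the second probe.

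Cdc25b, the third phosphatase, was near background. It was detected on 0 arrays of EpiSC, 1 each of EsrrbNeg and EsrrbMed and all 3 of EsrrbHi, which is why it was measured at all. Log2 intensities were 4.53, 4.67 and 4.56 in EpiSC, 4.64, 4.36 and 4.34 in EsrrbNeg, 4.70, 4.49 and 4.23 in EsrrbMed and 5.11, 5.05 and 4.81 in EsrrbHi. Every EsrrbHi array was above every other. The fitted log2 fold change of EpiSC against EsrrbHi was −0.23 (adjusted p = 0.105). Wee1, the kinase that adds the phosphates CDC25 removes, was above background on no array.

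Genes of origin licensing and replication lay a little higher in EsrrbNeg. All 8 were measured, and all 8 had positive log2 fold changes in EsrrbNeg against EsrrbHi, with a median of 0.26 beside 0.03 over all features, although that of Mcm5 turns to −0.01 with median scaling. None was called. Mcm4 (0.43), Mcm6 (0.29) and Mcm3 (0.30), subunits of the helicase, and Cdc6 (0.41), which loads it, passed the adjusted p alone, at 0.00116, 0.0142, 0.0465 and 0.00284. Of all features, 41% did so. Dimmer Mcm4 probes gave 0.05 and 0.19 (adjusted p = 0.775 and 0.26), and another Mcm6 probe gave 0.27 (adjusted p = 0.0213). The same 8 were positive in EsrrbMed against EsrrbHi (median 0.22), where none passed. The averages over the 8 genes were 0.21 to 0.28 on the EsrrbNeg arrays and 0.12 to 0.29 on the EsrrbMed arrays, against −0.06 to 0.08 on the EsrrbHi arrays.

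In EpiSC against EsrrbNeg the licensing genes had a median of −0.21 and 7 of 8 were negative (6 of 8 in the authors' normalized table, where Pcna turns), and only Mcm3 fell. Mcm3 had log2 intensities of 7.65, 7.72 and 7.46 in EpiSC, 8.21, 8.37 and 8.08 in EsrrbNeg, 7.96, 7.91 and 8.19 in EsrrbMed and 7.84, 7.98 and 7.95 in EsrrbHi. EpiSC was below every ESC array. The fall of 0.63 ± 0.13 (adjusted p = 0.00157, with 5.45e-05 to 0.0911 over all alternatives) is lost under 8 of 23 alternatives. Among these are no background correction, normexp at an offset of 50, median scaling, the authors' normalized table and chip 2 alone (−0.47). The others leave out EsrrbNeg array 2, EpiSC array 3 or EsrrbMed array 3. Other probes of Mcm4 and Mcm7, dimmer than those used, fell by 0.98 and 0.83 in EpiSC against EsrrbNeg, where the probes used gave −0.14 and −0.28.

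Pcna, the sliding clamp of DNA polymerases, did not pass in any comparison. It had log2 intensities of 6.83, 6.81 and 6.62 in EpiSC, 6.10, 6.27 and 6.83 in EsrrbNeg, 6.29, 6.30 and 6.93 in EsrrbMed and 6.16, 6.09 and 6.83 in EsrrbHi. In each ESC group the array on chip 2 was the highest. With chip in the fit, the 95% interval was −0.15 to 0.23 for EsrrbNeg against EsrrbHi and −0.31 to 0.13 for EpiSC against EsrrbNeg, and the sign of the second turns in the authors' normalized table (0.21).

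The G1 cyclins went separate ways. Among the D cyclins, which bind CDK4 and CDK6 and pass growth signals to the cycle, Ccnd3 had log2 intensities of 9.87, 9.79 and 9.65 in EpiSC, 9.17, 8.98 and 9.25 in EsrrbNeg, 9.98, 9.65 and 9.95 in EsrrbMed and 10.29, 10.13 and 10.12 in EsrrbHi. The EsrrbNeg arrays were the lowest, apart from all others. Ccnd3 was 2.07-fold lower in EsrrbNeg than in EsrrbHi (adjusted p = 6.53e-06) and 1.66-fold lower than in EsrrbMed (adjusted p = 0.000256). In EpiSC against EsrrbNeg it came to 0.58 ± 0.13 (adjusted p = 0.00258), just short of the fold threshold.

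Ccnd2 was the member with the greatest difference in EpiSC. Its log2 intensities were 8.05, 7.56 and 8.02 in EpiSC, 5.79, 5.71 and 6.42 in EsrrbNeg, 6.72, 6.23 and 6.23 in EsrrbMed and 6.84, 6.30 and 6.38 in EsrrbHi. All EpiSC arrays were above all ESC arrays. It was 3.6-fold higher in EpiSC than in EsrrbNeg (adjusted p = 7.78e-05) and 2.49-fold higher than in EsrrbHi (adjusted p = 0.000434), and a second probe gave log2 fold changes of 1.65 and 1.16. Between EsrrbNeg and EsrrbHi the log2 fold change was −0.82 within chip 1 and 0.04 within chip 2, and −0.53 together (adjusted p = 0.0594).

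By the probe used, Ccnd1 was lowest in EsrrbMed, although neither step of the ESC series passed (adjusted p = 0.0501 and 0.0573 by limma). Log2 intensities were 10.94, 10.87 and 11.10 in EpiSC, 10.60, 10.58 and 10.72 in EsrrbNeg, 10.41, 10.42 and 10.36 in EsrrbMed and 10.77, 10.74 and 10.73 in EsrrbHi. No group overlapped another. None of its 6 comparisons was called, the 2 with adjusted p under 0.05 being EpiSC against EsrrbNeg (0.33) and EpiSC against EsrrbMed (0.56). A dimmer Ccnd1 probe gave −0.69 in EpiSC against EsrrbHi, where the probe used gave 0.21. Against EsrrbHi, that dimmer probe gave −0.41 in EsrrbMed and −0.47 in EsrrbNeg, and so was not lowest in EsrrbMed. A further probe gave −0.31 and −0.20.

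The E cyclins, partners of CDK2 at the start of S phase, differed from each other. Ccne2 had log2 intensities of 5.39, 5.23 and 5.17 in EpiSC, 6.49, 6.19 and 5.99 in EsrrbNeg, 5.72, 5.69 and 5.79 in EsrrbMed and 5.27, 4.79 and 5.03 in EsrrbHi. The 3 ESC groups did not overlap, with EsrrbNeg the highest, and EpiSC overlapped EsrrbHi only. It rose by 1.19 ± 0.14 in EsrrbNeg (adjusted p = 1.32e-05) and by 0.70 ± 0.14 in EsrrbMed (adjusted p = 0.0179), each against EsrrbHi. The call in EsrrbNeg is lost without background correction (0.48) and in the authors' normalized table (0.50). The call in EsrrbMed is lost under 10 of 24 alternatives, among them leaving out EsrrbHi array 2 or any EsrrbMed array, with adjusted p from 0.00941 to 0.106. Ccne2 was 1.87-fold lower in EpiSC than in EsrrbNeg (adjusted p = 0.000588), a call lost without background correction (−0.38), with normexp at an offset of 50 (−0.55) and in the authors' normalized table (−0.42).

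Ccne1 differed little among the ESC groups and was low in EpiSC. Log2 intensities were 7.76, 7.57 and 7.80 in EpiSC, 8.81, 8.91 and 8.81 in EsrrbNeg, 8.93, 8.82 and 8.79 in EsrrbMed and 8.70, 8.62 and 8.61 in EsrrbHi. Every EpiSC array was below every ESC array. Ccne1 was 2.13-fold lower in EpiSC than in EsrrbNeg (adjusted p = 7.43e-06) and 1.85-fold lower than in EsrrbHi (adjusted p = 6.83e-06), calls that held under all 23 alternatives tried.

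**Figure D3:**
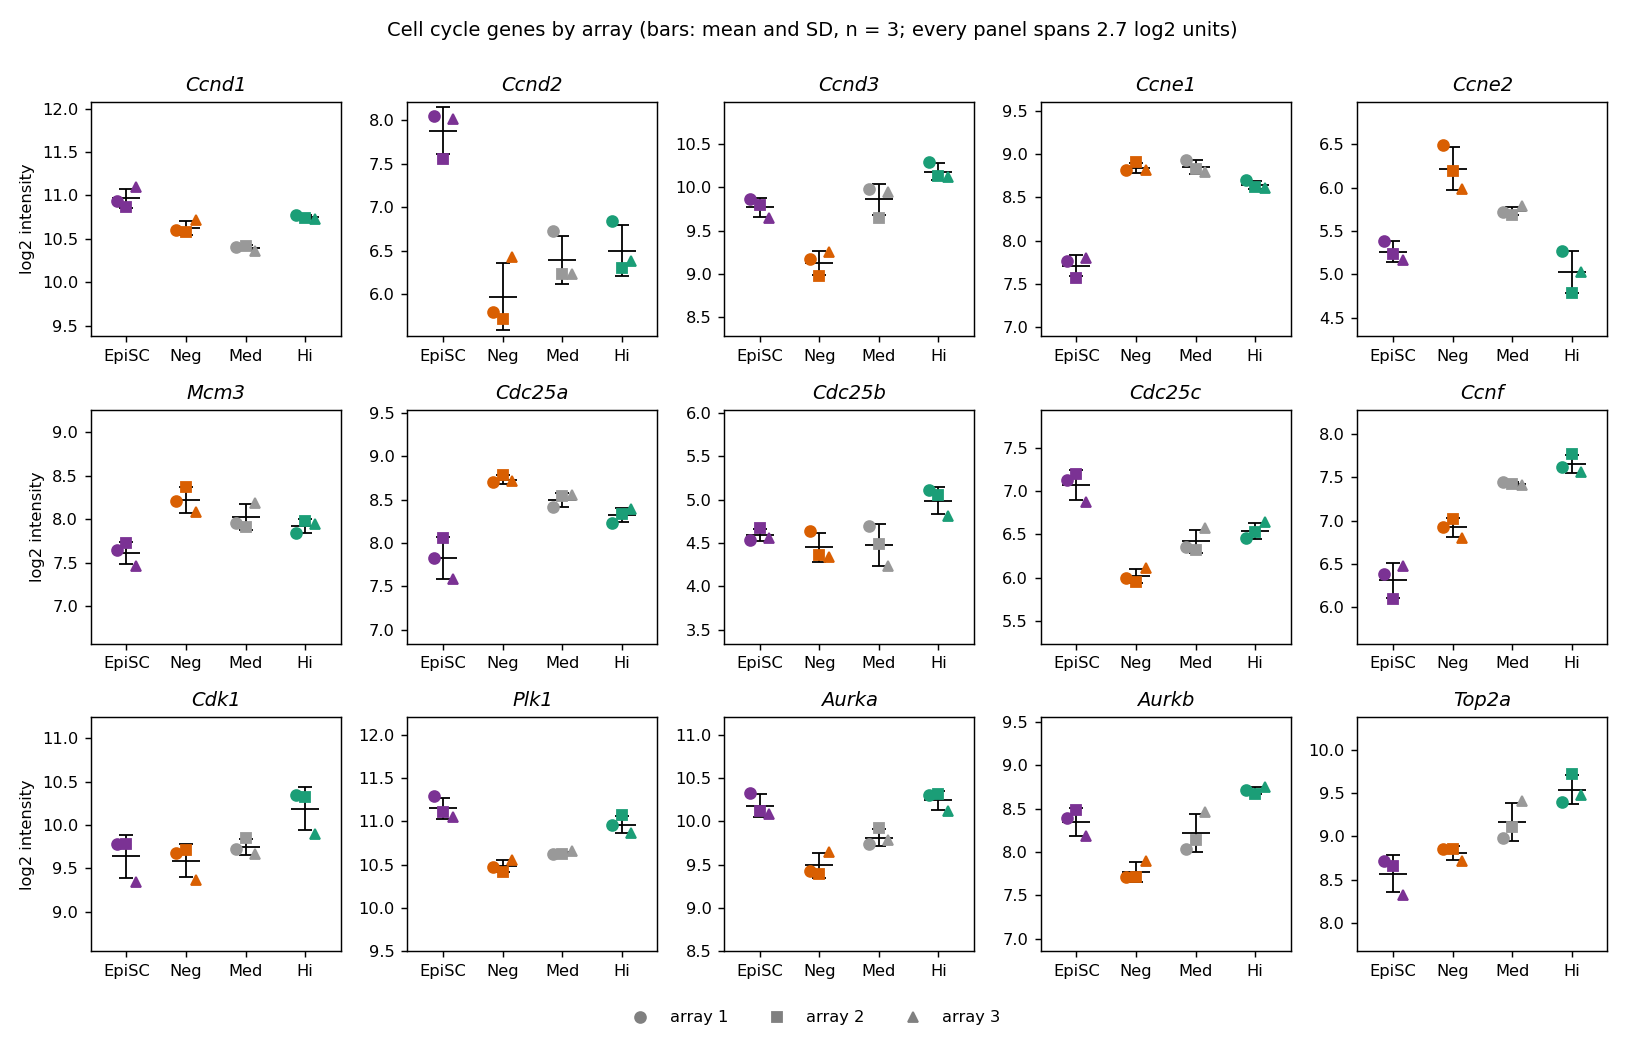
Log2 intensity (vertical axis) of 15 cell cycle genes on each array, with symbols for arrays 1 to 3 and bars for the mean and SD of each group (n = 3), groups running from EpiSC to EsrrbHi and every panel spanning the same log2 range. Ccne1 and Ccnd2 set EpiSC apart from all ESC arrays in opposite directions, while Ccnd3, Aurka and Plk1 are lowest in EsrrbNeg.

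For Cdk4, a CDK of G1, the difference was 0.18 in EsrrbNeg against EsrrbHi and −0.13 in EpiSC against EsrrbNeg, with 95% intervals of −0.03 to 0.40 and −0.38 to 0.12, and Cdk6 was above background on no array. A dimmer Cdk4 probe gave 0.43 in EpiSC against EsrrbNeg (adjusted p = 0.00799), opposite in sign to the probe used. Cdk2 had log2 fold changes of −0.33 in EsrrbNeg against EsrrbHi (adjusted p = 0.00859) and −0.43 in EpiSC against EsrrbHi (adjusted p = 0.00259), under the fold threshold. All 3 other Cdk2 probes passed both thresholds in EpiSC against EsrrbHi, at −0.65, −0.84 and −1.

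At the restriction point, where pocket proteins hold back E2F factors until CDKs release them, 3 of 5 members were measured and none was called. E2f1, an activating E2F, averaged 8.26 ± 0.12 in EsrrbNeg and 8.68 ± 0.22 in EsrrbHi (log2 intensity, SD, n = 3 each), a log2 fold change of −0.42 (adjusted p = 0.00836). Rb1, the retinoblastoma protein gene, came to 0.47 ± 0.14 in the same comparison (adjusted p = 0.0139), but to 0.68 within chip 1 and 0.03 within chip 2, and a second probe gave 0.60, past both thresholds. Rbl1, encoding the pocket protein p107, averaged 4.77 ± 0.19 in EsrrbNeg and 5.08 ± 0.10 in EsrrbHi, a log2 fold change of −0.31 (adjusted p = 0.0451). These values lie near background, as those of Cdc25b do, which limits this difference. Rbl1 was detected on 2 of 3 EsrrbMed arrays and on all arrays of the other groups. Rbl2 (p130) was above background on no array, and the CDK inhibitor gene Cdkn1b (p27) on 1 array only.

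The spindle checkpoint holds CDC20 from activating the anaphase-promoting complex (APC/C) until chromosomes are attached. Of 3 measured members of 4 none was called in any comparison by the probes used, and Bub1 was above background on no array. A wider list of kinetochore and checkpoint genes, described below, had 5 of 21 genes falling and 0 rising in EsrrbNeg against EsrrbHi. Bub1b, a checkpoint kinase, came to −0.32 ± 0.09 in EsrrbNeg against EsrrbHi (adjusted p = 0.0103) and 0.34 ± 0.10 in EpiSC against EsrrbNeg (adjusted p = 0.0153), with overlapping arrays in both. A second, dimmer Bub1b probe gave −0.32 (adjusted p = 0.0306) and 0.12 (adjusted p = 0.451) in these comparisons. For Cdc20 the 95% interval of the difference between EsrrbNeg and EsrrbHi was −0.30 to 0.05 and for Mad2l1 −0.20 to 0.24. Another, dimmer Cdc20 probe fell by 0.72 in EpiSC against EsrrbHi, where the probe used gave −0.15. That dimmer probe gave −0.57 in EpiSC against EsrrbNeg (adjusted p = 0.00401), where the probe used gave −0.03. Further Cdc20 probes gave −0.33 (adjusted p = 0.0134) and −0.37 (adjusted p = 0.183) in EpiSC against EsrrbHi.

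Further cell cycle genes, from lists of 200 genes outside the members, were looked at by function. The lists were chosen with earlier results of these data known. Of these genes 152 were measured, and 24 were called in EsrrbNeg against EsrrbHi, 6 higher and 18 lower (15.8%, beside 18.1% of all features). Of 15 measured genes of mitotic kinesins, spindle and cytokinesis, 7 fell and 0 rose, with a median of −0.58. Under other background corrections and scalings 3 to 9 fell, where 6.72% to 17.4% of all features were called. Nusap1, which bundles spindle microtubules, fell by 1.13 ± 0.14 (adjusted p = 2.84e-05), and Kif23, a kinesin of the central spindle, by 1.07 ± 0.11 (adjusted p = 4.3e-06). Of 21 kinetochore and checkpoint genes, 5 fell and 0 rose (median −0.29, with 3 to 6 falls under those alternatives), led by Sgo2a, a protector of centromeric cohesin (−1), and Cenpm (−0.86). In EpiSC against EsrrbHi, 7 of the 15 kinesin and spindle genes fell (median −0.34), as did 4 of the 21 kinetochore genes (median −0.27). In both lists 0 rose there, beside 33.4% of all features called in either direction.

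Genes of the replication fork were not among the calls of EsrrbNeg against EsrrbHi. Of 23 measured fork enzymes and nucleotide synthesis genes, 0 were called in EsrrbNeg against EsrrbHi, 7 passed the limma adjusted p alone, all of them higher, beside 41% of all features, and 18 were positive (median 0.16). In EpiSC against EsrrbNeg, 5 of the 23 genes fell and 0 rose, a share close to the 21% of all features called. Under other background corrections and scalings 1 to 4 of the fork genes fell, where 7.55% to 17.8% of all features were called. The 5 falls were led by Rpa2, a subunit of the single-strand binding complex (−0.67), and the flap nuclease gene Fen1 and the chromatin assembly gene Chaf1a (−0.65 each). Among 18 other licensing and firing factors, only Cdc7, a kinase that fires origins, rose in EsrrbNeg against EsrrbHi (0.63 ± 0.08, adjusted p = 3.59e-05).

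**Figure D4:**
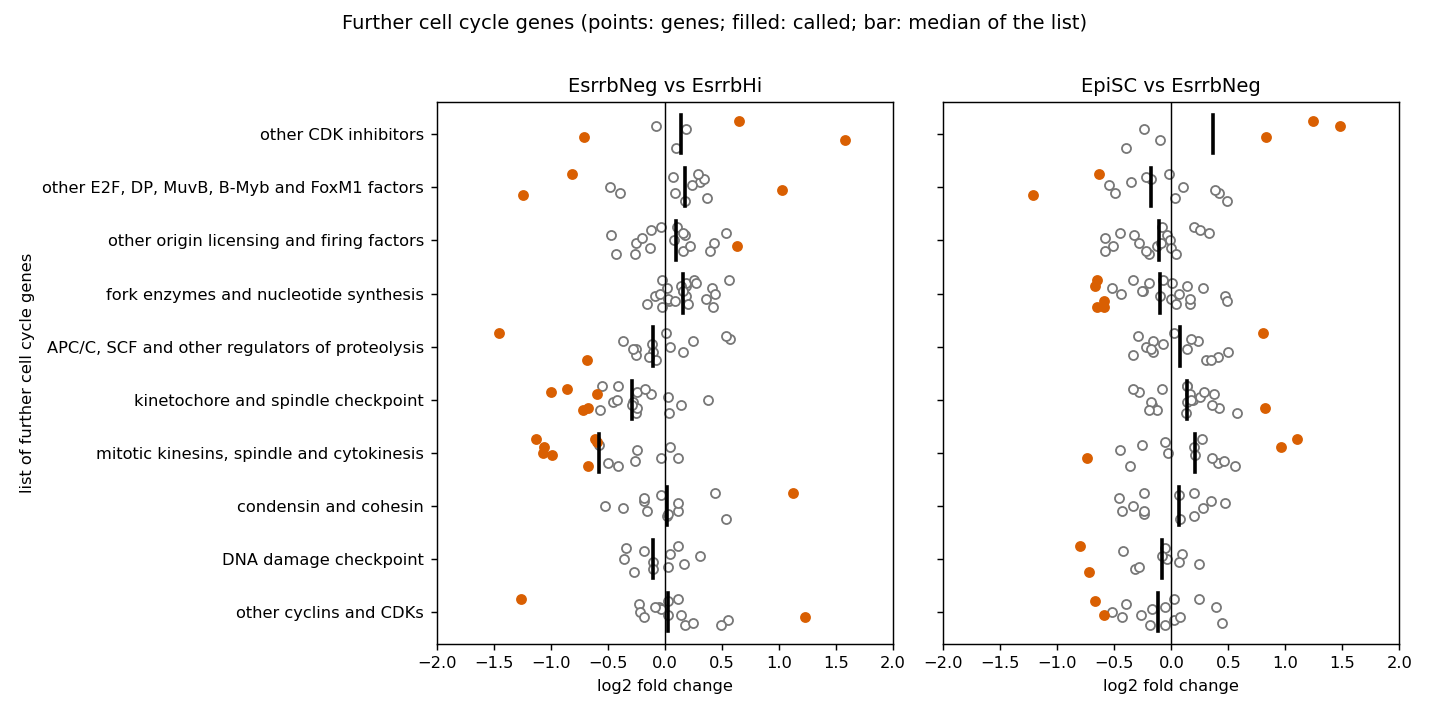
Log2 fold changes (horizontal axis) of 152 further cell cycle genes, 1 point per gene in 10 lists, for EsrrbNeg against EsrrbHi on the left and EpiSC against EsrrbNeg on the right. Filled points are called and black bars are list medians. The filled points of the kinesin and kinetochore lists all lie left of 0 in the left panel.

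Of 13 other E2F, MuvB and FoxM1 factors measured, 1 rose and 2 fell in EsrrbNeg against EsrrbHi, and of 16 regulators of proteolysis 0 rose and 2 fell, beside 18.1% of all features called. Mybl2 (B-Myb), which joins the MuvB complex at mitotic gene promoters, had a log2 fold change of −1.24 ± 0.17 in EsrrbNeg against EsrrbHi (adjusted p = 5.39e-05), −1.21 in EpiSC against EsrrbNeg and −2.45 in EpiSC against EsrrbHi (adjusted p = 2.57e-07). E2f2, an activating E2F, fell by 0.81 in EsrrbNeg against EsrrbHi, and E2f6, a repressive E2F, rose by 1.03. Fzr1 (CDH1), which activates the APC/C in late mitosis and G1, came to −0.67 in EsrrbMed and −1.45 ± 0.09 in EsrrbNeg (adjusted p = 6.92e-08), each against EsrrbHi, and rose by 0.80 in EpiSC against EsrrbNeg. Ube2c, the ubiquitin-conjugating partner of the APC/C, fell by 0.68 in EsrrbNeg.

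Of 6 measured CDK inhibitor genes outside the members, 2 rose and 1 fell in EsrrbNeg against EsrrbHi, and 3 rose in EpiSC against EsrrbNeg, with 1 rise and 0 falls in the first and 2 rises in the second without background correction. Of all features, 18.1% and 21% were called in these comparisons, and 6.72% and 7.55% without background correction. Cdkn1c (p57) rose by 0.85 in EsrrbMed and 1.58 ± 0.11 in EsrrbNeg against EsrrbHi (adjusted p = 1.33e-07). Cdkn1a (p21) rose by 0.65 in EsrrbNeg against EsrrbHi and by 1.24 ± 0.18 in EpiSC against EsrrbNeg (adjusted p = 0.000149). Cdkn2d fell by 0.71 in EsrrbNeg. Cdkn3, a phosphatase that acts on CDKs and is no inhibitor of the same kind, rose by 1.48 in EpiSC against EsrrbNeg.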

How the data were processed

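Total RNA (100 ng) from 12 samples was hybridised by the authors to Illumina MouseWG-6 v2 BeadChips. Scans were read by the authors with beadarray, and the deposited file gives, for each probe, an intensity averaged over its beads, linear and not normalized, beside a detection p-value the authors took from the negative control beads. The deposited log2 table (38563 of 45281 probes) holds the authors' values after quantile normalization and ComBat batch correction and served as an alternative. Versions of the authors' tools are not given in the sources used here.

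Intensities were processed with limma 3.58.1 in R 4.3.3. Background, estimated through the detection p by neqc, was removed with an offset of 16, and log2 values were quantile normalized. The filter described in the text left 14834 probes, and the probe with the highest mean stood for each gene. A probe annotation gave 1 gene name for 32093 probes, several for 16 and none for 13172, and 99.82% of its gene identifiers were found in RefSeq. All 12 arrays entered a single limma fit with group and chip, with Benjamini-Hochberg adjustment over 11089 features. A call needed an adjusted p of at most 0.05 and a fold change of at least 1.5. For ESC groups this fold change equals the difference of group means, and for EpiSC the chip term rests on the ESC arrays alone. The fit was tested on simulated data with known changes.

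Array numbers of the ESC groups were checked for pairing. Arrays with the same number deviated from their group means together in all 9 pairs (r = 0.238 to 0.555, others −0.462 to 0.227). Chip was not allowed for, and array 3 of every ESC group lay on chip 2. The check therefore cannot tell pairing from chip for those arrays. Any pairing is inferred from the data, and a fit with the array number as a block was an alternative. The members, roles and lists were chosen with earlier results of these data known. Named were all called members, the members with the smallest adjusted p where fewer than 3 were called, Ccnd1, Ccnd2, Ccnd3, Ccne1, Cdk1, Cdkn1b, Mki67 and Pcna in any case, and up to 2 rises and 2 falls per further list. The number of arrays, 3 per group, limits the precision. Alternatives changed the background correction, the scaling, the filter, the probe rule, the chip term, the threshold and the arrays used. Figures were drawn with matplotlib 3.10.9.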

Additional observations from a re-analysis of the deposited data

How the results depend on the processing

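Of 26 member calls in the 6 comparisons, 16 held under every alternative, 10 were lost under at least 1 and 0 turned round, and 4 of the 10 were lost without some array. In EsrrbMed against EsrrbHi the count of 1 became 0 without background correction, with normexp at an offset of 50, with median scaling, without the detection filter and in the authors' log2 table. Without background correction 4 members were called in EsrrbNeg against EsrrbHi, 5 in EpiSC against EsrrbNeg and 3 in EpiSC against EsrrbMed, where 6.72%, 7.55% and 13% of all features were called. In the authors' log2 table the counts were 4 in EsrrbNeg against EsrrbHi and 3 in EpiSC against EsrrbMed, where 7.26% and 14.7% of all features were called. The cause was not tested. On chip 1 alone 3 members were called in EsrrbNeg against EsrrbMed, beside 11.3% of all features. With the adjusted p alone the counts were 3, 8 and 20 for EsrrbMed against EsrrbHi, EsrrbNeg against EsrrbMed and EsrrbNeg against EsrrbHi, and 17, 14 and 13 for EpiSC against EsrrbNeg, EsrrbMed and EsrrbHi.

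Leaving out each array in turn gave 0 to 1 calls in EsrrbMed against EsrrbHi (0 without EsrrbHi array 2, EsrrbMed array 2 or EsrrbMed array 3), 1 to 3 in EsrrbNeg against EsrrbMed (3 without EsrrbNeg array 3), 6 to 10 in EsrrbNeg against EsrrbHi, 7 to 11 in EpiSC against EsrrbNeg, 5 to 6 in EpiSC against EsrrbMed and 4 to 6 in EpiSC against EsrrbHi. Among all 11089 features, these refits called 56 to 160, 1228 to 1410, 1978 to 2117, 2214 to 2934, 3092 to 3605 and 3636 to 3862, in the same order. The counts of members include Cdc25b in some refits. Without EsrrbMed array 1 the only call in EsrrbMed against EsrrbHi was Cdc25b, since Ccne2 was lost. In EsrrbNeg against EsrrbHi, Cdc25b was added without EsrrbNeg array 1 or array 3. It passed the detection filter only through EsrrbHi, so these calls are no support. With the array number as a replicate block, the paired fit of the 9 ESC arrays called 1, 1 and 7 members in the ESC comparisons, as without it. That fit called 1.37%, 12% and 18.2% of all features. Over all 12 arrays the block gave 10 in EpiSC against EsrrbNeg, adding Ccnd3 and Ccnf, 6 in EpiSC against EsrrbMed, adding Cdc25c, and 4 in EpiSC against EsrrbHi, and it removed no call. Shares of all features called there were 23.4%, 32.1% and 34.5%. Of all features called in EsrrbNeg against EsrrbMed, 48.1% were higher in EsrrbNeg, and 37.5% in the authors' log2 table. Precision is limited by 3 arrays per group, and signal over background limits Cdc25b, which was not detected on any EpiSC array.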

Other observations

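Of 13 measured condensin and cohesin genes, only Stag2, a cohesin subunit gene, was called in EsrrbNeg against EsrrbHi, where it rose (1.12 ± 0.11, adjusted p = 4.41e-06). In EpiSC against EsrrbHi, 4 of the 13 rose and 2 fell, beside 33.4% of all features called, and Smc2, a core condensin subunit gene, was the lowest at −0.86. Of 11 measured DNA damage checkpoint genes, 0 were called in EsrrbNeg against EsrrbHi by limma, while 4 passed the adjusted p alone, 1 higher and 3 lower, beside 41% of all features. In EpiSC against EsrrbNeg, the checkpoint kinase genes Atm (−0.80) and Chek2 (−0.72) fell, with adjusted p of 0.000108 and 0.000379 by limma.

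Of 16 other cyclin and CDK genes measured, 1 rose and 1 fell in EsrrbNeg against EsrrbHi, beside 18.1% of all features. Ccng1, a p53 target, rose by 1.23 ± 0.12 (adjusted p = 2.9e-06), and Cdk19, a kinase of the Mediator complex, fell by 1.26 ± 0.09 (adjusted p = 2.24e-07). Among the other origin licensing and firing factors, Gins2, a subunit of the active helicase, rose by 0.87 in EpiSC against EsrrbHi and Orc1, a subunit of the origin recognition complex, fell by 0.78.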
